A study of Homo sapiens with 2 samples.

Results

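Translation initiation factor genes were defined as protein-coding RefSeq genes on the human build hg38 whose symbol is EIF followed by a digit. The rule uses names and no measured value. It gave 56 of 19866 protein-coding genes: 5 in the EIF1 group, 15 in EIF2, 14 in EIF3, 16 in EIF4, 5 in EIF5, and EIF6. They were read in a peak list of chromatin isolated with an antibody against TCF4. The cells were CAL-27, an established line of human tongue squamous carcinoma, in sphere culture. The series has 1 library for the TCF4 antibody and 1 for an IgG control antibody, of which the second was not analysed. Neither genotype nor drug treatment sets the libraries apart in the labels, and no value below has a replicate check. Peaks that do not depend on the antibody therefore cannot be told apart from sites of TCF4 binding. The labels do not say whether the antibody sees the E protein TCF4, a basic helix-loop-helix factor of E-box sites, or TCF7L2, the Wnt effector that shares the name.

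Initiation is the stage of translation at which the ribosome is brought to the start codon of an mRNA. The eIF2 complex delivers the initiator tRNA as long as eIF2B recharges it with GTP, and stress kinases stop this by phosphorylating eIF2. The eIF4 factors bind the mRNA cap, unwind the leader and connect it to eIF3 on the small ribosomal subunit, while eIF1 and eIF1A keep the scanning ribosome selective for the start codon. The factors eIF5 and eIF5B then trigger GTP hydrolysis and the joining of the large subunit. Control of eIF4E through mTOR and of eIF2 through its kinases is widely studied in tumours.

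RefSeq promoter windows of GRCh38.p14, the patch level of the build hg38 used here, run from 250 bases before to 50 bases after an annotated start, and were given for 47 of the 56 genes. The 6 windows below are shown because each holds the summit of a strong peak at an initiation factor gene, with at most 2 from any group. Capitals mark matches, on either strand, to the E-box CANNTG, the TCF/LEF letters CTTTGAT and CTTTGAA, the CCAAT box CCAAT, the GC box GGGCGG, the ETS core CCGGAAG, the NRF1 core GCGCATGC, the YY1 core AAGATGG, the AP-1 letters TGANTCA and the palindrome CTCGCGAG. The letters CAGCTG and CACCTG are forms of the E-box and were also counted apart. Adjoining capitals can hold overlapping matches, as in ATTGGGCGG of EIF4G2, where a CCAAT box and a GC box share bases.
EIF5A, chr17:7307378-7307677, plus strand: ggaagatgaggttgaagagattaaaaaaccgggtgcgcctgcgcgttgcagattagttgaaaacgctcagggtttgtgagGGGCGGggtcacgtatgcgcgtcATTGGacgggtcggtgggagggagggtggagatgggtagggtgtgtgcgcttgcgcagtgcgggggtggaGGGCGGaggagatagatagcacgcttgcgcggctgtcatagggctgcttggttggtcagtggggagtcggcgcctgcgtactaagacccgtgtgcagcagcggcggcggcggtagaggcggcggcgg
EIF4G2, chr11:10808877-10809176, minus strand: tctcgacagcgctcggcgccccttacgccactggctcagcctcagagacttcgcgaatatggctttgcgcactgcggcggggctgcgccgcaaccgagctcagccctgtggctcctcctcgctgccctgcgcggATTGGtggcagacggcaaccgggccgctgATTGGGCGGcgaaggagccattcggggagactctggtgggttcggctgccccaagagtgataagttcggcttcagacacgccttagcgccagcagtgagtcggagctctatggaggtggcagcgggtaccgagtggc
EIF3D, chr22:36529117-36529416, minus strand: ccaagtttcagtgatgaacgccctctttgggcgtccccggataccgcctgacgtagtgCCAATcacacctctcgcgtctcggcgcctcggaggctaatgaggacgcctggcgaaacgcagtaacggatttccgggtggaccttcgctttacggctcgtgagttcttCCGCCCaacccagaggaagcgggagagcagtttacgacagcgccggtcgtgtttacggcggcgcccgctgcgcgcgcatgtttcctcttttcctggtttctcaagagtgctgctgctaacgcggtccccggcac
EIF4B, chr12:53006206-53006505, plus strand: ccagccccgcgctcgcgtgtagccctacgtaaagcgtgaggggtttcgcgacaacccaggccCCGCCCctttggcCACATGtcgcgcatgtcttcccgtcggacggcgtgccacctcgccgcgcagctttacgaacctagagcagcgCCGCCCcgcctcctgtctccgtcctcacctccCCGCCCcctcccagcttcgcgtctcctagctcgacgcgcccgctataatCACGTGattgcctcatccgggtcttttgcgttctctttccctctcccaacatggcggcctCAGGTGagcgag
EIF3J, chr15:44536897-44537196, plus strand: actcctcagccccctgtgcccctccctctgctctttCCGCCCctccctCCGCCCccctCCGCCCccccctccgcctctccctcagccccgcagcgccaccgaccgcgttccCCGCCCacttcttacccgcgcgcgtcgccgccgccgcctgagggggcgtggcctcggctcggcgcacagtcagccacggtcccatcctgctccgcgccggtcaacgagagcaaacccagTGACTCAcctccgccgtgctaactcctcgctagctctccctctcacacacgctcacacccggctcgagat
EIF5, chr14:103333987-103334286, plus strand: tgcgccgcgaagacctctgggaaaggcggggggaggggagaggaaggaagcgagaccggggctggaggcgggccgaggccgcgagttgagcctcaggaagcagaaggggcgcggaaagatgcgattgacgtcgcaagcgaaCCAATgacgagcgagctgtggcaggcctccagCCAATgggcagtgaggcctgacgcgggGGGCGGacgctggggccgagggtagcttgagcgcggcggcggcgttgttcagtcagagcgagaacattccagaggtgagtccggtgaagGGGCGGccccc

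Counted from 1 at the 5′ end of each window, the summit lay at base 144 in EIF5A, 106 in EIF4G2, 71 in EIF3D, 22 in EIF4B, 195 in EIF3J and 216 in EIF5. That is 107, 145, 180, 229, 56 and 35 bp upstream of the annotated start. All 6 windows are rich in G and C, from 61.3% in EIF3D to 72% in EIF3J, and hold 29 to 35 CpG dinucleotides. EIF4B alone has E-boxes, 3 of them, at bases 76, 229 and 289, and none of the 6 has the TCF/LEF letters. No match in a window says only that these letters are not in it.

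Most initiation factor genes carried a peak at an end. A summit lay within 1 kb of either end of the gene record in 43 of 56 genes, 76.8% (95% Wilson interval 64.2 to 85.9%), beside 41.5% of all 19866 protein-coding genes. In a further 4 genes a summit lay only inside, which made 47 of 56 (83.9%), beside 54.9% of all protein-coding genes. At a −log10 q of at least 5, 32 genes (57.1%) had a summit at an end, beside 27.4% of all genes. At a −log10 q of at least 10 there were 24 (42.9%), beside 14.2%. At least 2 summits lay at ends of the same gene in 14 members (25%), beside 8.68% of all genes. The members' share was above the share of all genes at each of these thresholds. These are descriptions of 1 library, with no test, and gene activity was not measured here.

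The peaks at these genes were also of more than middling height. The highest fold enrichment at an end, a ratio deposited by the authors of fragments at the summit over those of the local background, with 1 added to both, had a median of 8.21 over the 43 genes with such a peak. Its quartiles were 6.05 and 10.1. Over all 8241 protein-coding genes with a summit at an end the median was 6.39, with quartiles of 5.03 and 8.45. At least 2 summits lay at ends in 14 of the 43 genes and in 1725 of the 8241. The effect of taking the highest of them was not tested. The number of fragments at the summit, solved from each peak's fold and p, had a median of 16 in the 43 genes and of 13 in all 8241. Peak width had a median of 341 bp against 278 bp. Gene records were of like length, with medians of 22588 bp for the 56 genes and 24469 bp for all protein-coding genes. The caller's local background was alike too, with medians of 1.11 and 1.06 fragments.

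**Figure D1:**
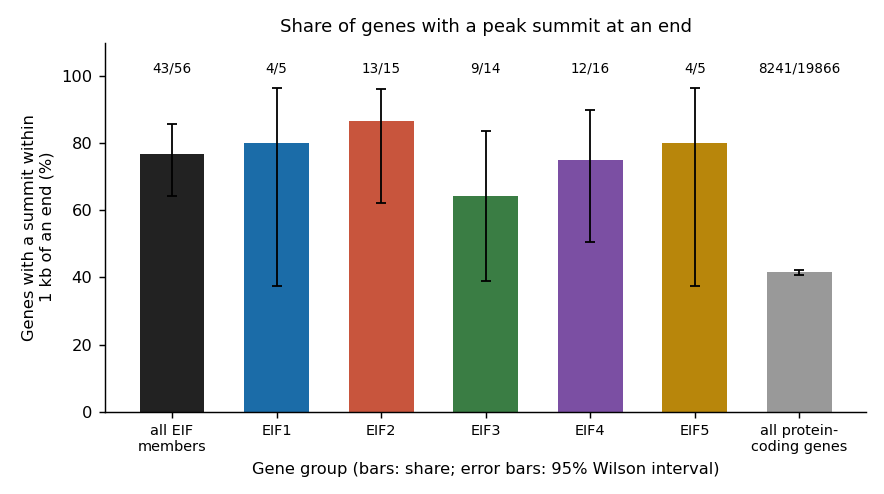
Share of genes with a peak summit within 1 kb of an end (vertical axis, percent) for all 56 EIF genes, for each group and for all 19866 protein-coding genes, with counts above the bars. Error bars are 95% Wilson intervals, those of the groups overlap, and every group's share lies above the 41.5% of all genes. The intervals of EIF1, EIF3 and EIF5 extend below 41.5%.

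The groups, of 5 to 16 genes, are too small for their shares to be told apart or called alike. A summit lay at an end in 4 of 5 EIF1 genes (80.0%, Wilson interval 37.6 to 96.4%), 13 of 15 EIF2 genes (86.7%, 62.1 to 96.3%), 9 of 14 EIF3 genes (64.3%, 38.8 to 83.7%), 12 of 16 EIF4 genes (75%, 50.5 to 89.8%) and 4 of 5 EIF5 genes (80.0%, 37.6 to 96.4%). EIF3 had the lowest share and EIF2 the highest, and their intervals overlap. With internal summits counted as well, EIF3 stood at 12 of 14 and EIF2 at 13 of 15. The median of the highest fold per gene was 8.97 in EIF1, 8.28 in EIF2, 7.09 in EIF3, 7.90 in EIF4 and 8.73 in EIF5. The ranges within groups, the widest from 4.33 to 19.3 in EIF5, were far larger than the distances between these medians. Differences between groups of this size were not tested.

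**Figure D2:**
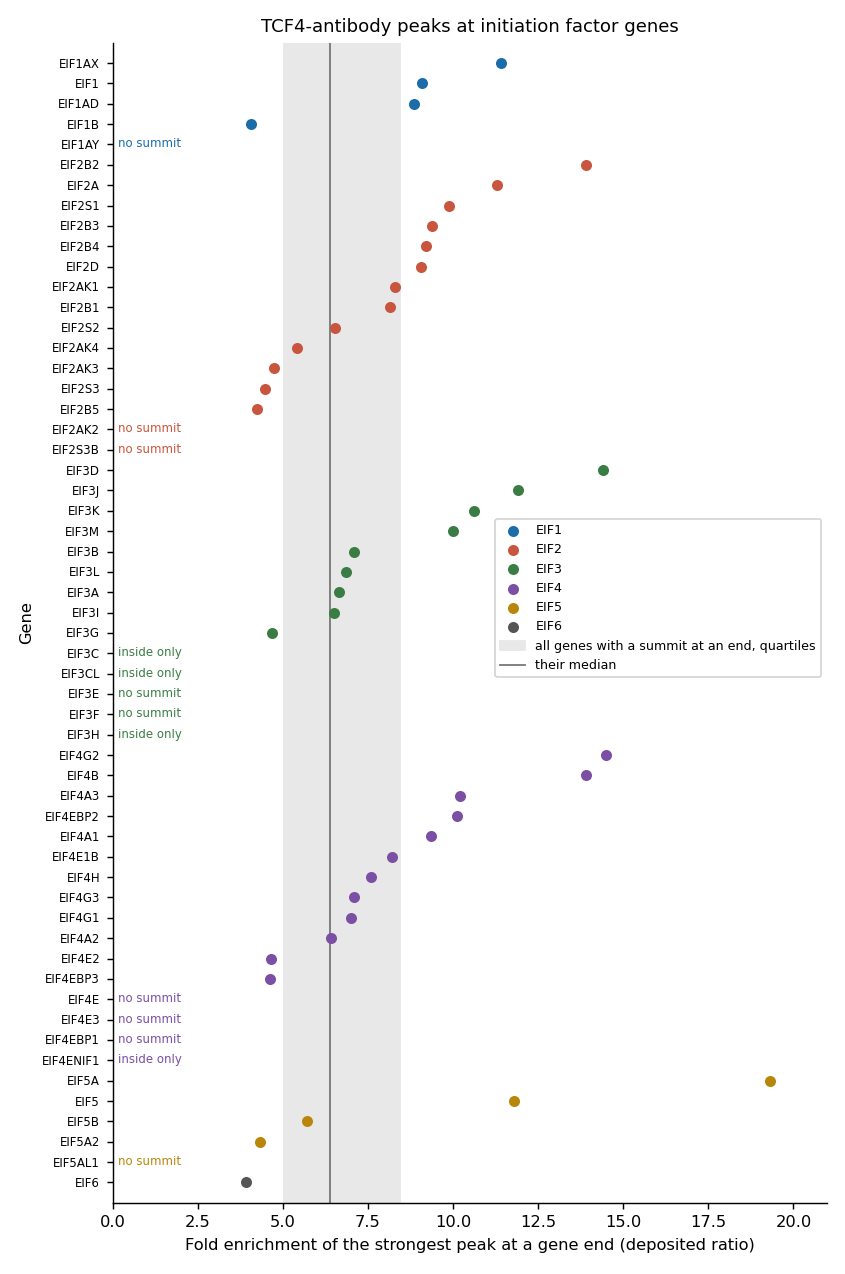
Fold enrichment of the strongest peak at an end (horizontal axis, deposited ratio) for each of the 56 genes, ordered by group and fold; genes with no such peak are marked in words. The grey band and line give the quartiles, 5.03 and 8.45, and the median, 6.39, of all protein-coding genes with a summit at an end, and EIF5A stands farthest to the right at 19.3.

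In the EIF1 group, whose core members guard start codon selection, EIF1 itself had a fold of 9.10 on 81 fragments (exact Poisson interval 64.3 to 101), in a peak of 1062 bp on chromosome 17 from 41688555 to 41689616. EIF1AX, the X-linked gene of eIF1A, had a higher fold of 11.4 on only 16 fragments (9.15 to 26), on chromosome X from 20141919 to 20142103. The order of fold and the order of fragments were thus opposite, since the local background was 8.01 fragments at EIF1 and 0.496 at EIF1AX. EIF1AD, which encodes a protein with an eIF1A-like domain, had a fold of 8.84 on 38 fragments. EIF1B, a close copy of EIF1, had 4.07 on 5 fragments, the fewest of any member peak at an end. EIF1AY, the Y-linked copy, had no summit.

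In the EIF2 group all 5 subunit genes of the exchange factor eIF2B, which recharges eIF2 with GTP, had a summit at an end. The share over all protein-coding genes was 41.5%. The strongest summits of EIF2B1 and EIF2B4 also lay 7 and 252 bp from ends of GTF2H3 and SNX17. EIF2B2 led with 33 fragments and a fold of 13.9 (fragment interval 22.7 to 46.3), on chromosome 14 from 75002537 to 75002931. EIF2B3 had 9.37 on 16 fragments, EIF2B4 9.19 on 27 and EIF2B1 8.16 on 13. EIF2B5, the catalytic subunit, stood lowest with 4.24 on 7 fragments (2.81 to 14.4) and a −log10 q of 2.39. The interval of EIF2B5 lies below that of EIF2B2. Of the genes of eIF2 itself, EIF2S1, whose product is the target of the stress kinases, had a fold of 9.89 on 17 fragments, EIF2S2 had 6.54 on 11 and the X-linked EIF2S3 4.47 on 6. EIF2S3B, a retrocopy of EIF2S3, had no summit.

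The kinases that phosphorylate eIF2 ran from a middling peak to none. EIF2AK1, the haem-regulated kinase, had a fold of 8.28 on 15 fragments, 5 bp from its high-coordinate end. EIF2AK4, which senses amino acid shortage, had 5.42 on 7 fragments. EIF2AK3, the kinase of the endoplasmic reticulum known as PERK, had 4.73 on 8. EIF2AK2, the kinase of double-stranded RNA known as PKR, had no summit at an end or inside. The fragment intervals of the 3 kinases with a peak overlap (8.40 to 24.7, 2.81 to 14.4 and 3.45 to 15.8). EIF2A, an alternative carrier of initiator tRNA, had one of the strong peaks, with a fold of 11.3 and 27 fragments, on chromosome 3 from 150546256 to 150546809. EIF2D, a factor of noncanonical initiation and of ribosome recycling, had 9.07 on 16 fragments.

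The EIF3 group holds the subunits of the scaffold that organises the small ribosomal subunit. EIF3D, a subunit that can itself bind certain mRNA caps, had 35 fragments (24.4 to 48.7) and a fold of 14.4, on chromosome 22 from 36528859 to 36529592. EIF3J, a loosely bound subunit, had 11.9 on 28 fragments, on chromosome 15 from 44536565 to 44537236. EIF3M had 10 on 17 fragments. EIF3B had 7.09 on 25, EIF3L 6.85 on 11, EIF3A, the largest subunit, 6.64 on 13 and EIF3G 4.67 on 15. In EIF3K and EIF3I the strongest peak lay beyond the finish of the gene and not at its start. EIF3K had 29 fragments and a fold of 10.6 at 236 bp past its finish, on chromosome 19 from 38636953 to 38637251, and 4.58 on 9 fragments 258 bp upstream of its start. EIF3I had 6.51 on 16 fragments 193 bp past its finish and no summit at its start. No end of another gene record lay within 1 kb of these summits past EIF3K and EIF3I.

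The other 5 EIF3 genes had no summit at an end. EIF3C and EIF3CL, near-identical copies 262 kb apart on chromosome 16, had only internal summits, with folds of 5.42 on 7 fragments and 6.78 on 9. Reads of such copies can be placed in either, so these values are uncertain. EIF3H had only an internal summit of fold 4.07 on 5 fragments, and EIF3E and EIF3F had none. The local background of the summits inside EIF3C, EIF3CL and EIF3H was at the lowest value in the list, 0.475 fragments.

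In the EIF4 group the scaffold genes all had a peak. EIF4G2, whose product lacks the site for eIF4E and serves noncanonical initiation, had 42 fragments (30.3 to 56.8) and a fold of 14.5, on chromosome 11 from 10808777 to 10809435. EIF4G3 had 7.09 on 12 fragments. EIF4G1, the main scaffold of the cap-binding complex, had 6.99 on 32 fragments (21.9 to 45.2) over a local background of 3.72. The lower fold of EIF4G1 thus went with a fragment interval that overlaps that of EIF4G2, whose background was 1.96. The helicase cofactor EIF4B had 13.9 on 42 fragments, on chromosome 12 from 53006095 to 53006435, and the cofactor EIF4H 7.59 on 14. Among the RNA helicases EIF4A3, a member of the exon junction complex, had 10.2 on 35 fragments, EIF4A1 9.34 on 48 and EIF4A2 6.41 on 13.

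The cap-binding proteins and their inhibitors were the mixed part of EIF4. EIF4E, the cap-binding protein of canonical initiation, and its relative EIF4E3 had no summit at an end or inside. EIF4E2, a cap-binding repressor, had a fold of 4.66 on 8 fragments. EIF4E1B, a relative of EIF4E, had a fold of 8.21 on 27, but 725 bp past its finish. Among the eIF4E-binding inhibitors, EIF4EBP2 had 10.1 on 20 fragments, EIF4EBP3 4.63 on 8, and EIF4EBP1 had none. EIF4ENIF1, whose product carries eIF4E into the nucleus, had only an internal summit, of fold 4.88 on 7 fragments.

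The EIF5 group held the strongest peak of all members. EIF5A, whose product carries the amino acid hypusine and helps the ribosome through difficult peptide bonds, had 99 fragments (80.5 to 121), a fold of 19.3 and a −log10 q of 91.8, on chromosome 17 from 7307171 to 7307648. It ranked 80 by fold and 51 by −log10 q among all 26642 peaks, and 11 by fold among the 8580 peaks at protein-coding gene ends. EIF5, the GTPase activator of eIF2, had 11.8 on 37 fragments, on chromosome 14 from 103333860 to 103334531. EIF5B, the GTPase of subunit joining, had 5.70 on 9 fragments. EIF5A2, a second eIF5A gene, had 4.33 on 7 fragments, and EIF5AL1, a further copy, had none. The fragment interval of EIF5A lies above those of EIF5 (26.1 to 51.0) and EIF5A2 (2.81 to 14.4). EIF6, which keeps the ribosomal subunits apart, had 3.91 on 12 fragments, the lowest fold among the 43 genes.

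The 9 genes with no summit at all were EIF1AY, EIF2AK2, EIF2S3B, EIF3E, EIF3F, EIF4E, EIF4E3, EIF4EBP1 and EIF5AL1. They include gene copies (EIF1AY, EIF2S3B and EIF5AL1) as well as core factors (EIF4E, EIF3E and EIF3F). Few peaks of any kind lay nearby for some of them. Within 500 kb of the record there were 0 peaks for EIF1AY and EIF4E3, 1 for EIF4E and 3 each for EIF3E and EIF4EBP1. By contrast 7 lay near EIF2AK2, 8 near EIF3F, 12 near EIF5AL1 and 15 near EIF2S3B. Around EIF5A there were 61 and around EIF1 63. For EIF1AX and EIF1B, which do have a summit, there were 2 each. These numbers include a gene's own peaks, so genes with and without a summit are not compared on equal terms. At these 9 genes no peak was detectable at this depth, which does not show that the antibody's target is absent from them.

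Summits sat just upstream of annotated starts. Strand and starts from RefSeq were at hand for 38 of the 43 genes with a summit at an end, and in 35 of them (92.1%) the strongest summit was at the end where transcription starts. The share for all 6867 such protein-coding genes was 93.1%. The exceptions were EIF3I, EIF3K and EIF4E1B. Of the 35, 27 (77.1%) lay upstream of the nearest annotated start, with a median position of -105 bp and quartiles of -176 and -30.5 bp. Over all genes 69.4% lay upstream, with a median of -75 bp and quartiles of -168 and 33.0 bp. The range in the members was from -437 bp in EIF2AK3 to 499 bp in EIF4A2. The members' positions thus lay within the spread of other genes.

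**Figure D3:**
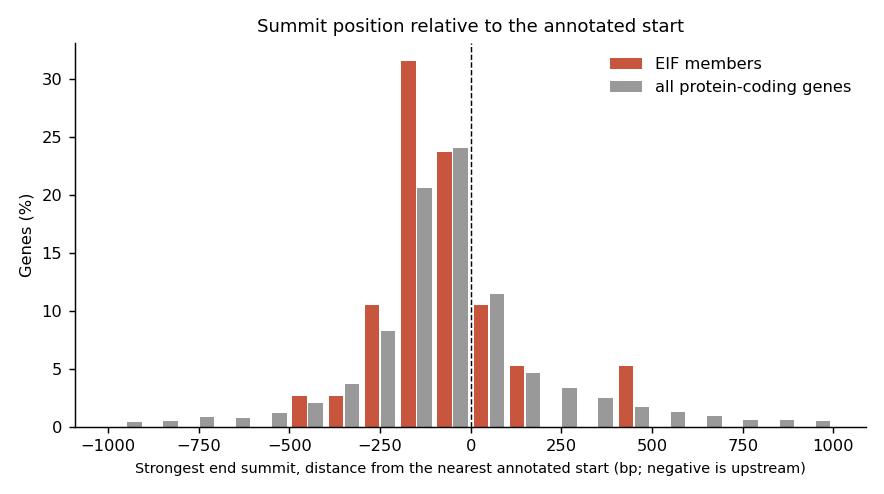
Position of the strongest summit at an end relative to the nearest annotated start (horizontal axis, bp, upstream negative, bins of 100 bp) as a share of genes (vertical axis, percent), for 38 EIF genes and for 6867 protein-coding genes. Both are highest in the 200 bp upstream of the start; 31.6% of EIF genes and 20.6% of all genes fall between -200 and -100 bp.

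Some summits inside gene records lay near annotated starts that are not the end of the record. The EIF5A summit lies 522 bp inside the record and 107 bp upstream of 1 of its 6 annotated starts. The main EIF3B summit lies 749 bp inside the record and 8 bp from its annotated start. EIF4ENIF1, counted as internal because its summit is 3510 bp inside the record, has it 216 bp upstream of the annotated start. In EIF4G1 an internal summit of fold 7.60 on 37 fragments lies 57 bp upstream of an annotated start that is itself inside the gene. Its fold is above the 6.99 at the record's own start, but the fragment intervals (26.1 to 51 and 21.9 to 45.2) overlap. Internal summits of EIF4G3, at folds of 3.64, 5.98 and 5.96, lie 26915 bp or more from any annotated start. EIF2D has an internal summit of fold 9.09 on 18 fragments, 22234 bp downstream of its start, level with the peak of fold 9.07 at the start itself, and 783 bp from an end of RASSF5.

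Paired summits flanked the start in several genes. EIF2B2 had summits 251 bp upstream (fold 13.9) and 231 bp downstream (4.92) of its start. EIF4EBP2 had them 127 bp upstream (10.1) and 292 bp downstream (3.90), EIF4B 229 bp upstream (13.9) and 604 bp downstream (6.11), and EIF2S3 228 bp upstream (4.43) and 126 bp downstream (4.47). The upstream summit was the higher of the pair in EIF2B2, EIF4EBP2 and EIF4B, and the EIF2S3 summits both rested on 6 fragments. It was also the higher around the record's start in EIF2B4 (9.19 beside 3.98) and EIF4G1 (6.99 beside 2.95). In EIF3B and EIF5B the downstream summit was the higher, 8 and 3 bp from the start. Its fold was 7.09 on 25 fragments beside 4.63 on 16 in EIF3B, and 5.70 on 9 beside 4.43 on 7 in EIF5B. The upstream summit was thus not the higher in every pair. EIF5 had 3 summits at its ends: 11.8 upstream of its first start, 4.65 located 16 bp from its other annotated start, and 4.15 on 8 fragments 556 bp past its finish. EIF4A1 and EIF4A3 likewise had a summit at each end. At EIF4A1 the folds were 9.34 at the start and 5.53 past the finish, and at EIF4A3 10.2 at the start and 6.45 past the finish.

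Some of these peaks lie between neighbouring genes and cannot be given to either. In 10 of the 43 genes (23.3%) the strongest summit was also within 1 kb of an end of another protein-coding gene, beside 30.8% of all 8241 genes with a summit at an end. The EIF1AD summit lay 219 bp upstream of its own start and 127 bp upstream of the start of BANF1, a chromatin-binding protein of the nuclear envelope. The EIF2A summit lay 192 bp upstream of its own start and 99 bp upstream of that of SERP1, a protein of the endoplasmic reticulum. The EIF2B1 summit was 136 bp from its own start and 7 bp from that of GTF2H3, a subunit of the transcription factor TFIIH. The EIF2S1 summit was 362 bp from its own start and 162 bp from that of ATP6V1D, a proton pump subunit. In each of these the partner's start was the nearer.

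The summit past the finish of EIF4E1B lay 115 bp upstream of the start of TSPAN17, and the summit past EIF4A1 lay 111 bp upstream of that of CD68, a lysosomal glycoprotein best known from macrophages. EIF4E2 and TIGD1 share a summit 61 and 71 bp from their starts, and that of EIF3L, 62 bp inside its record, lay 140 bp upstream of the start of ANKRD54. Starts of long noncoding RNA records lay within 300 bp of the strongest summits of EIF1B, EIF2AK3, EIF2B5, EIF3J and EIF4G2, at 65, 72, 286, 168 and 226 bp. With each summit given to its nearest protein-coding gene alone, 38 of 56 genes kept a summit at an end, beside 36.2% of all genes.

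The local background differed widely between members. EIF5A ranked first among them by both fold and fragments, while EIF1 and EIF4A1 stood higher by fragments than by fold. The local background at the strongest peak was 8.01 fragments at EIF1, 4.24 at EIF4A1, 4.17 at EIF5A, 3.72 at EIF4G1 and 3.41 at EIF1AD. EIF5A and EIF4A1 lie 260 kb apart on chromosome 17, and within 500 kb of them the median background of all peaks was 2.67 and 2.95 fragments. Near EIF1 it was 2.98 and near EIF1AD 7.35, above the 0.962 of all 26642 peaks. EIF2B5 and EIF4G1 lie 169 kb apart on chromosome 3, with backgrounds of 0.888 and 3.72 at their summits, so closely placed genes can differ. EIF4A1 had the third highest number of fragments at an end among the members (48, interval 35.4 to 63.6) after EIF5A (99) and EIF1 (81), although its fold of 9.34 was below those of EIF2B3 (9.37, on 16) and EIF2S1 (9.89, on 17). Copy number and local depth were not separated here, and their part in these values was not tested.

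**Figure D4:**
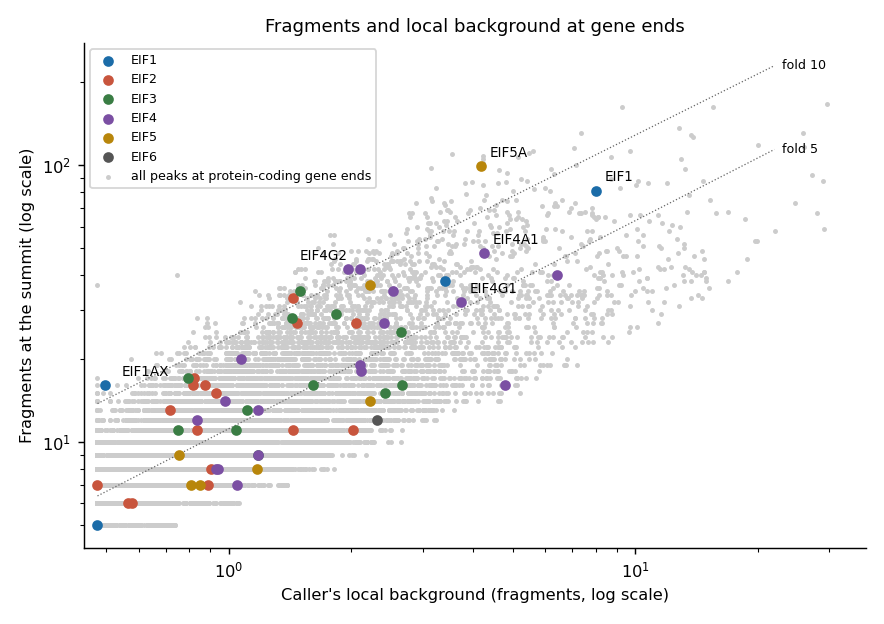
Fragments at the summit (vertical axis, log scale) against the caller's local background (horizontal axis, fragments, log scale) for summits at ends of EIF genes, coloured by group, over all 8580 peaks at protein-coding gene ends in grey. Dotted lines mark folds of 5 and 10; EIF5A, with 99 fragments over a background of 4.17, lies above the upper line and EIF1, with 81 over 8.01, below it.

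CpG content of the promoter window moved with the presence of a peak. Among genes with at least 20 CpG in a window, a summit lay at an end in 36 of 39 initiation factor genes (92.3%), beside 57.5% of 9743 protein-coding genes. Among genes with fewer, it did in 2 of 8 (25%), EIF2S3 and EIF4EBP3, beside 20.7% of 6100. The 6 CpG-poor genes without a summit at an end were EIF3C with 5 CpG, EIF5AL1 with 11, EIF1AY and EIF3F with 15 each, EIF2S3B with 17 and EIF4E with 19. The 3 CpG-rich genes without it were EIF2AK2 with 30, EIF4ENIF1 with 37 and EIF4E3 with 44. A summit at either end was counted, so the 36 include EIF3I and EIF4E1B, whose only end summits lay past the finish. They leave out EIF4ENIF1, although its internal summit lay in its promoter window. The division by CpG content was chosen after the values were seen, and the part of CpG content in the counts was not tested. The windows of EIF2AK1, EIF2S2, EIF3A, EIF3CL, EIF3E, EIF3G, EIF3H, EIF3L and EIF4EBP1 were not used here.

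The letters of the factors that the antibody may see were counted in these windows and in those of all genes, with no test of a difference. An E-box CANNTG was found in a window of 33 of the 47 genes (70.2%), beside 70.5% of 15843 protein-coding genes. The form CAGCTG was in 5 (10.6%) beside 22.7%, and CACCTG in 8 (17.0%) beside 24.8%. EIF4H had CAGCTG at 2 positions of its window, and EIF2B4 had CACCTG at 2. The TCF/LEF letters were in 3 genes (6.38%), EIF2B4, EIF2S1 and EIF4G1, beside 7.21%. Of 30 windows that held a summit, 18 (60.0%) had an E-box, beside 57.3% of all 5235 protein-coding windows with a summit, and 1 (3.33%), a window of EIF4G1, had the TCF/LEF letters, beside 2.69%.

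The GC box was the most frequent of the other motifs, in 35 of the 47 genes (74.5%) beside 64.3%. It was in 26 of the 30 windows with a summit (86.7%) beside 81.6% of all such windows, and in 18 of the 33 without (54.5%) beside 48.5%. The CCAAT box was in 21 genes (44.7%) beside 42.1%, and in 12 of the 30 windows with a summit (40%) beside 41.9%. The ETS core was in 13 genes (27.7%) beside 16.5%, but in windows with a summit in 7 (23.3%) beside 21.6%. The YY1 core was in 5 genes (10.6%), EIF2B5, EIF3F, EIF4E, EIF5 and EIF5A, beside 7.90%, and in 1 window with a summit (3.33%) beside 8.35%. The AP-1 letters were in 5 genes (10.6%), EIF2AK4, EIF3J, EIF4G1, EIF5 and EIF5AL1, beside 8.04%, and in 4 windows with a summit (13.3%) beside 4.45%. The NRF1 core was in 2 genes (4.26%) beside 4.89%, and in 0 windows with a summit beside 6.51%. The palindrome CTCGCGAG was in 0 genes beside 1.80%, and in 0 windows with a summit beside 2.56%. These matches are descriptions of letters and not of bound sites.

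Other genes of translation and its control carried peaks at a similar rate. Of 37 such genes, 27 (73.0%) had a summit at an end, with a median highest fold of 8.35. For the 56 initiation factor genes these values were 76.8% and 8.21, and for all protein-coding genes 41.5% and 6.39. The counts by role below are to be read against the same 41.5%. All 3 genes listed for poly(A) binding and its partners had a summit at an end. PABPC1, the cytoplasmic poly(A)-binding protein that contacts eIF4G, had a fold of 13.9 on 54 fragments. The partner genes PAIP2 and PAIP1 had 9.62 and 7.11. Of 4 genes of termination and recycling, ETF1, the release factor, had 14.0 on 61 fragments and GSPT1 7.32, while ABCE1 and GSPT2 had none. Of 7 elongation genes 5 had one, led by EEF1A1 (11.5 on 81 fragments), EEF1G (9.18) and EEF2K (6.69), and EEF1A2 and EEF1B2 had none. Of 9 initiation cofactors outside the EIF names 6 had one, led by ABCF1 (12.8), DDX3X (8.84) and BZW1 (8.72), with none at DHX29, MCTS1 and PDCD4.

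Genes around the control points of eIF2 and eIF4E were covered as well. All 4 genes listed around eIF2 phosphorylation had a summit at an end. PPP1R15B, a subunit of the eIF2 phosphatase, had a fold of 10.2, the stress factor DDIT3 8.35, ATF4 4.60 and the inducible phosphatase subunit PPP1R15A 4.17. Of 8 genes that control eIF4E, 6 had one. The kinase gene MTOR had a fold of 10.3, its activator RHEB 9.90 and its substrate RPS6KB1 9.12. RPTOR had 16 summits, all inside the gene, and TSC2 had none. EIF4E itself thus had no summit while MTOR and EIF4EBP2 did. Of the mitochondrial initiation factors, MTIF3 had a fold of 9.71 and MTIF2 had none.

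The peak list as a whole holds 26642 peaks, with a median fold of 5.13 and a median of 10 fragments at the summit (quartiles 7 and 15). A count of fragments in a single library gives a wide interval for most members. The library's total read number is unknown. Ends of all 6 epithelial marker genes examined (KRT5, KRT14, KRT6A, EPCAM, CDH1 and ITGA6) held a summit, beside 41.5% of all protein-coding genes. Their folds ran from 4.16 at KRT14 to 9.27 at EPCAM, and the summits of KRT5 and KRT14 lay 909 and 972 bp from an end. A peak at an end does not measure expression.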

How the data were processed

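DNA from 1 TCF4-antibody library was analysed; the IgG library was not. The submitters' processing notes list Bowtie2 2.3.5.1, SAMtools, MACS2 2.2.7.1 and the build hg38, without settings. Per the labels' protocols, antibody-bound complexes were isolated and the DNA amplified with indexed primers. The deposited fold is the authors' ratio of summit to local background. The deposited −log10 p-values and q-values are the caller's, with q at or under 0.05, while the score column, also deposited, holds 10 times −log10 q cut to a whole number. No source used here says whether peaks were called against IgG.

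Summits were column 2 plus column 10, as 1-based positions. Each fold and p was solved for whole fragments at the summit; all 26642 peaks were met within 0.0001, and all 500 simulated peaks were recovered. Of 130 gene ends given a simulated summit, 130 were found. Both simulations used the formula and window rule of the main run, so they check the code only. The simulated backgrounds stayed below that of EIF1. Genes came from RefSeq (GRCh38.p14), 19866 of them protein-coding on the main chromosomes; records on separate scaffolds were left out. A summit belonged to a gene when within 1 kb of an end or inside, and could belong to several genes. Starts came from the promoter table (47 of 56 genes). Poisson intervals cover counting error of fragments only and take reads as independent molecules, which they are not. Wilson intervals take genes as independent draws, although the 56 genes are a full named set that includes copies such as EIF3C and EIF3CL. Neither covers variation between libraries. With 1 library there was no test. Every member is described, the 10 with the highest fold with coordinates. Of the other pathway genes, up to 3 per role with the highest fold and those without a summit are named by rule, and PPP1R15A was added after its value was seen. The CpG division at 20 was also set after seeing the data. Members, lists and motifs were chosen with earlier results of these data known. The alternatives were stricter peaks, other windows, any overlap, each end alone and the nearest gene alone. Computation used Python 3.11.15 with pandas 2.3.3, NumPy 2.4.6 and SciPy 1.17.1, and plots were drawn in Matplotlib 3.10.9.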

Additional observations from a re-analysis of the deposited data

How the results depend on the processing

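Of the recomputed values, 48 stayed within 1.5 times the reported count, or within the 95% binomial interval of the median fold (6.64 to 9.37), and 25 moved. With windows of 500 and 2000 bp, 41 and 43 of 56 genes had a summit at an end, beside 36.6% and 45.7% of all genes, and any overlap of the peak gave 43 beside 42.2%. The median fold was 9.27 at a −log10 q of at least 5. Stricter peaks lowered the counts by construction. At a −log10 q of at least 5, EIF5 fell to 2 genes. At 10, 24 genes had a summit at an end and 24 at an end or inside, with 7 in EIF2, 5 in EIF3, 7 in EIF4 and 2 in EIF5. With at least 20 fragments both counts were 18, beside 11.1% of all genes for ends, with 2 in EIF1, 3 in EIF2, 4 in EIF3, 7 in EIF4 and 2 in EIF5. The low-coordinate end alone gave 25 genes, 44.6% beside 22.3% of all genes (2 in EIF1, 6 in EIF2, 5 in EIF3), and the high-coordinate end alone 22, 39.3% beside 21.9% (2 in EIF1, 7 in EIF2, 5 in EIF3, 5 in EIF4, 2 in EIF5), since each leaves out genes whose summit is at the other end. Annotated starts in place of record ends, an alternative chosen after seeing the data, gave 37 genes, 66.1% beside 35.4% of all genes. Of these, 5 were in EIF3, where fewer genes have an annotated start in the table. The shares are of 56 and 19866 genes, though only 47 and 15843 had an annotated start to score. No paired analysis was possible because there is 1 library. Peaks of few fragments limit the order of single genes.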
